A study of Homo sapiens with 18 samples.

Results

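The RNA levels of 10 genes of the WNT pathway were followed through 8 groups of breast cancer cells with and without loss or depletion of SMARCAL1, a DNA helicase that remodels stalled replication forks. The 10 genes were the ligands WNT7B, WNT5A and WNT5B, the secreted modulators DKK1 and DKK3, the receptors LRP6 and FZD6, the scaffold AXIN2, the transcription factor TCF7L2 and the corepressor CTBP2. All 10 were found by symbol, among 57120 genes of the TruSeq count table and 44267 of the PLATE-seq count table. They were chosen with the knockout changes of both assays already known, WNT7B for its change in TruSeq and DKK1 and CTBP2 for theirs in PLATE-seq, and the others as genes of the same pathway. Their changes in knockout clones against the control are therefore given as a description, with no p-value, and where a number of them past a threshold is printed it stands beside the share of all genes and is not a test of them.

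The cells were MDA-MB-436, an established human triple-negative breast adenocarcinoma line. In the TruSeq assay, stranded libraries of total RNA were made from SMARCAL1 knockout clone 1 and from a control, with 3 libraries each. In PLATE-seq, a pooled plate assay of polyadenylated RNA, there were 2 libraries each of SMARCAL1 knockout clones 1, 2 and 3, of their control, of cells given siRNA SMARCAL1 and of cells given an siRNA control. Each knockout group is 1 clonal line, and the labels name the replicates biological without saying what was repeated, so p-values measure the spread between these libraries. The titles of the PLATE-seq samples name MDA-MB-436, but each carries another cell line tag (MDA-MB-437 for the first, MDA-MB-448 for the last), and all were treated as MDA-MB-436.

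WNT proteins are secreted lipid-modified ligands that bind Frizzled receptors. With the co-receptors LRP5 or LRP6 they stop a cytoplasmic complex built on AXIN proteins from destroying beta-catenin, which then enters the nucleus and activates genes through TCF and LEF factors, while other ligands, WNT5A the best known, mostly act through routes that do not need beta-catenin and that steer cell polarity and movement. Secreted antagonists of the Dickkopf family, with DKK1 as the type member, block the co-receptors, and in breast tissue the pathway is known for its part in mammary stem cells and in basal-like tumours.

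TruSeq libraries held 10257584 to 19270648 counts and PLATE-seq libraries 807861 to 3068887. Levels are CPM, counts scaled to the TMM-adjusted library size, and 3 counts, the floor used here, equalled 0.165 to 0.278 CPM in TruSeq and 0.911 to 3.72 CPM in PLATE-seq. SMARCAL1 RNA was at 13.4, 14.7 and 14.0 CPM in TruSeq knockout clone 1, against 13.9, 14.0 and 16.1 CPM in control. In PLATE-seq it had 3 and 6 counts in clone 1, 8 and 3 in clone 2, and 16 and 44 in clone 3, against 0 and 3 in control, and it had 0 and 0 counts with siRNA SMARCAL1, against 7 and 8 with siRNA control. The RNA level was thus no check of the knockout labels, and the clones are named as their labels name them. Of 5 epithelial markers in TruSeq, KRT8 (514 to 870 CPM) and KRT18 (555 to 818 CPM) were abundant, KRT7 (4.44 to 17.4 CPM) and EPCAM (1.91 to 4.197 CPM) low and KRT19 at most 0.256 CPM. Of 6 mesenchymal and basal markers, VIM (954 to 1392 CPM), CD44 (409 to 470 CPM) and EGFR (128 to 186 CPM) were abundant, KRT17 was at 12.03 to 49.1 CPM, and KRT5 and KRT14 stayed at or below 0.834 CPM. The values differed in PLATE-seq, with KRT7 at 139 to 337 CPM, KRT18 at 72.2 to 159 CPM and KRT8 at 8.77 to 32.2 CPM. EPCAM reached 9.36 CPM and KRT19 1.11 CPM there. KRT5 was at 9.28 to 46.5 CPM and KRT17 at 14.6 to 61.2 CPM, with KRT14 at most 0.911 CPM. VIM (188 to 471 CPM), CD44 (119 to 217 CPM) and EGFR (142 to 324 CPM) were abundant in PLATE-seq too. Why the assays differ in these markers was not tested. Of 3 receptor genes, ESR1 and PGR stayed below 1 CPM in TruSeq and had 0 counts in all 12 PLATE-seq libraries. The third, ERBB2, was at 37.3 to 53.5 CPM in TruSeq. In PLATE-seq it reached 9.12 CPM, with 0 counts in 1 library. Of the leukocyte and endothelial markers, PTPRC, CD3E, CDH5 and VWF had 0 counts in all 12 PLATE-seq libraries. There CD68 reached 5.12 CPM, CD14 4.86 CPM and PECAM1 4.16 CPM, with 0 counts in 3, 7 and 7 libraries in that order. In TruSeq PTPRC was at 0.290 to 2.69 CPM and VWF at 0.232 to 4.78 CPM. PECAM1 was at 0.0550 to 2.78 CPM and CDH5 at 0 to 0.768 CPM in that assay. The summed level of 4 leukocyte markers was 23.2 to 25.7 CPM in TruSeq knockout clone 1 and 29.9 to 33.6 CPM in control, mostly CD68 and CD14, with CD3E at 0 to 0.556 CPM. That of 4 fibroblast markers in PLATE-seq was 15.8 to 23.1 CPM after siRNA SMARCAL1 and 3.51 to 7.02 CPM after siRNA control, with PDGFRB and DCN at 0 in all libraries. The part of these markers in the results below was not tested. TruSeq libraries also fell apart by how many genes had a count, with 36042 to 39068 in knockout replicate 1 and control replicates 1 and 2, against 28621 to 30653 in knockout replicates 2 and 3 and control replicate 3. The TruSeq changes of the 10 genes within each of these 3-library sides are given with them below.

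DKK1 is the member for which upstream sequence is shown, because it is itself a known target of beta-catenin and was higher in knockout clones in both assays. The gene lies at chr10:52314296-52318042 on the plus strand (GENCODE release 29, GRCh38). The 250 bases before its RefSeq start, chr10:52314031-52314280 on the plus strand of GRCh38.p14, read 5′ to 3′ as follows, with the core letters of the motif known for TCF and LEF factors in capitals.
DKK1 upstream: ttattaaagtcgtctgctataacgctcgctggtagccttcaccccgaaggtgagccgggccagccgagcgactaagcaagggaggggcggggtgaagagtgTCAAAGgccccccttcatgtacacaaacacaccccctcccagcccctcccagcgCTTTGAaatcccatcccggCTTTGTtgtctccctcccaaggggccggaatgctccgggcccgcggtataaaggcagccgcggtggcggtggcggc
The letters searched were CTTTGA and CTTTGT on both strands, and no matches overlapped in this window. They stood at 149, 95 and 76 bases before the start, the first as the reverse strand form TCAAAG. Of 35116 such windows of all genes with an entry in RefSeq, 22.8% held at least 1 of them, 11.2% CTTTGA and 13.7% CTTTGT. In all, 5 members had an entry, with 13 windows, of which 3 held a match: that of DKK1, 1 of 3 for TCF7L2 and 1 of 5 for CTBP2. The 2 windows of WNT5A and the 2 of WNT5B held no match. Windows of the other members were not analysed here. A match is a description of the sequence and says nothing about binding.

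WNT7B (chr22:45920362-45977129, minus strand), a ligand that can signal through beta-catenin, was the member with the largest difference in TruSeq. It was at 8.99, 8.47 and 9.53 CPM in knockout clone 1 (97, 146 and 144 counts), against 1.79, 1.61 and 1.93 CPM in control (21, 20 and 35 counts). Every knockout library was above every control library, and the spread inside each group was small beside the gap. The log2 change was 2.32 (SE 0.16, edgeR), with 2.39 within the side of many detected genes and 2.21 within the side of few, and 2.26 to 2.40 when each library was left out in turn.

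In PLATE-seq the knockout clones were split. WNT7B had 76 and 68 counts in clone 1 (45.2 and 37.1 CPM), 37 and 24 in clone 2 (38.5 and 24.6 CPM) and 3 and 5 in clone 3 (1.33 and 1.52 CPM), against 3 and 2 in control (3.32 and 2.48 CPM). Clones 1 and 2 were far above control. Clone 3, sequenced most deeply of all groups, was at or near the floor of 3 counts, as was control. Of all genes tested, 39.2% in clone 1, 38.3% in clone 2 and 42% in clone 3 were separated from control without overlap, so such a separation of 2 libraries from 2 is common here. The log2 change against control was 3.78 (SE 0.79) in clone 1, 3.40 (SE 0.81) in clone 2 and -0.98 (SE 0.98) in clone 3.

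Set against each other without the control libraries, and as a description since the clone libraries were known when the genes were chosen, clone 1 was above clone 3 by 4.76 on the log2 scale (SE 0.75) and clone 2 above clone 3 by 4.38 (SE 0.76). These pairs did not overlap, as was so for 42.9% and 42.8% of all genes. Clone 1 against clone 2 gave 0.38 (SE 0.60), with overlapping libraries, where 35.3% of genes did not overlap.

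With siRNA, WNT7B had 7 and 12 counts after siRNA SMARCAL1 (4.76 and 11.9 CPM), against 0 and 4 after siRNA control (0 and 2.81 CPM). Both libraries of siRNA SMARCAL1 were higher than both of siRNA control, all at few counts. The log2 difference was 2.34 (SE 0.90, adjusted p = 0.656 by edgeR), with an unadjusted p under 0.05. WNT7B met the count filter of this fit only through knockout libraries, so both p-values are a description. The ratio of summed counts per total was 4.91, with a 95% counting interval of 1.63 to 19.9 that covers counting error only. Without siRNA control replicate 2 the fit had only the library at 0 counts to compare with, and the log2 difference over the 4 omissions ran from 1.49 to 6.59.

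**Figure D1:**
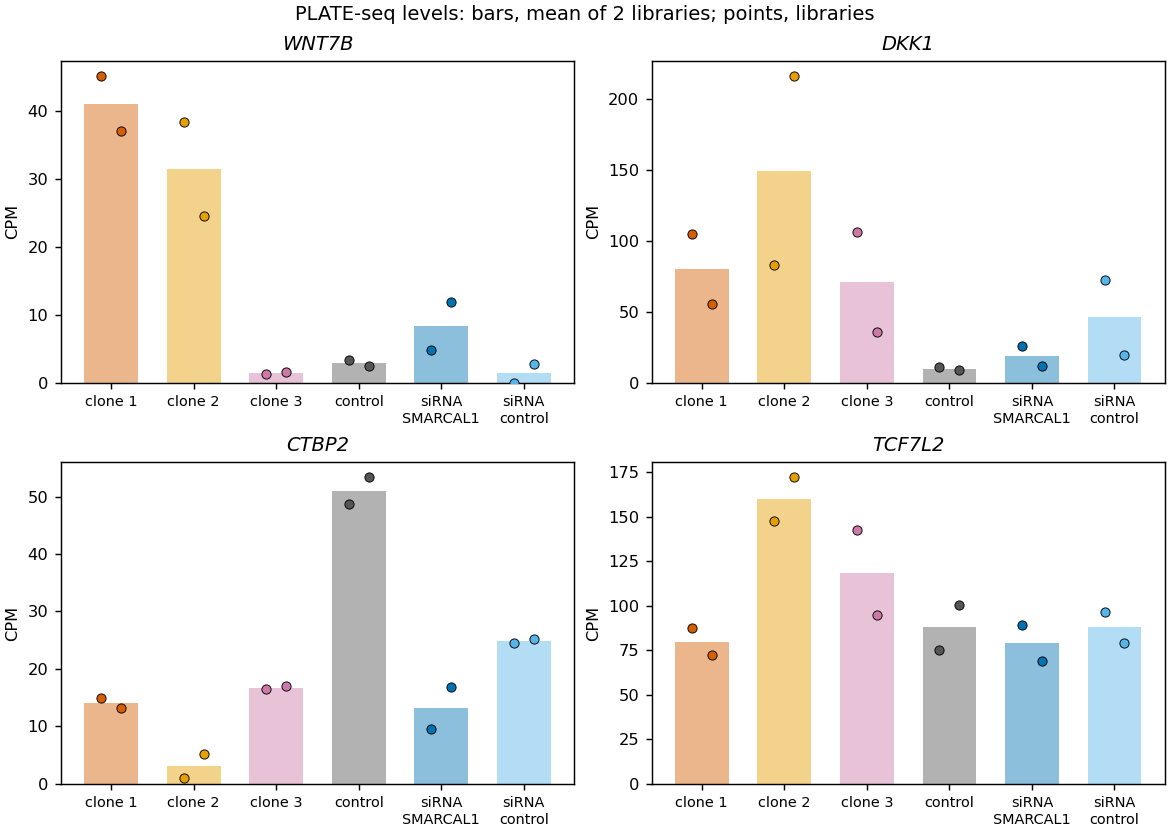
CPM (vertical axes, from 0) of WNT7B, DKK1, CTBP2 and TCF7L2 in the 6 PLATE-seq groups, with bars for the mean of 2 libraries and points for each library. WNT7B stands at 24.6 to 45.2 CPM in clones 1 and 2 and at 1.33 and 1.52 CPM in clone 3, whereas CTBP2 is lower in every other group than the 48.7 and 53.3 CPM of control.

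WNT5A (chr3:55465715-55490539, minus strand), a ligand mostly of the beta-catenin-independent routes, was at 58.8, 54.95 and 49.1 CPM in TruSeq knockout clone 1, against 24.2, 22.8 and 25.8 CPM in control. The groups did not overlap, and the lowest knockout library was well above the highest control library. This gave a log2 change of 1.16 (SE 0.09), with 1.31 within the side of many detected genes, 1.01 within the side of few, and 1.10 to 1.22 when each library was left out. In PLATE-seq WNT5A was near the detection limit, with 23 and 1 counts in clone 1, 6 and 1 in clone 2 and 20 and 10 in clone 3, against 1 and 2 in control. The replicates of clones 1 and 2 differed more from each other than the groups did. On the log2 scale the change was 1.95 (SE 1.51) in clone 1, 1.00 (SE 1.62) in clone 2 and 1.69 (SE 1.5005) in clone 3. For the mean of the clones it was 1.54 (SE 1.36). The ratio of the clones to control in summed counts was 3.16, with a 95% counting interval of 1.03 to 15.8. That interval covers counting error only and leaves out the spread between libraries. After siRNA SMARCAL1 there were 2 and 7 counts, against 3 and 7 after siRNA control, a log2 difference of 0.05 (SE 1.42, adjusted p = 0.997 by edgeR). WNT5A, too, met the count filter of this fit only through knockout libraries.

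WNT5B (chr12:1529891-1647243, plus strand), a close relative of WNT5A, was at 5.56, 4.87 and 5.76 CPM in TruSeq knockout clone 1, against 4.61, 7.59 and 5.01 CPM in control, and the groups overlapped (log2 -0.09, SE 0.21, with -0.15 within the side of many detected genes and 0.08 within the side of few). In PLATE-seq it had 6 and 5 counts in clone 1, 0 and 7 in clone 2 and 1 and 6 in clone 3, against 6 and 6 in control, and was too low for the fit. It had 3 and 3 counts after siRNA SMARCAL1, against 5 and 1 after siRNA control.

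DKK1, the secreted antagonist that binds LRP5 and LRP6, was at 87.9, 80.6 and 82.0 CPM in TruSeq knockout clone 1, against 54.2, 58.4 and 57.9 CPM in control. The knockout libraries were all higher than the control libraries. The fitted log2 change was 0.55 (SE 0.07), with 0.63 within the side of many detected genes, 0.49 within the side of few, and 0.52 to 0.58 when each library was left out. The 212 exonic bases that DKK1 shares with the antisense gene PRKG1-AS1 could not be told apart, since the strand setting of the counting is not given in the sources used here.

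In PLATE-seq DKK1 had 177 and 102 counts in clone 1 (105 and 55.7 CPM), 80 and 211 in clone 2 (83.2 and 216 CPM) and 239 and 117 in clone 3 (106 and 35.5 CPM), against 10 and 7 in control (11.1 and 8.68 CPM). All 6 knockout libraries were above both control libraries, though replicates of 1 clone differed widely. The log2 change was 3.01 (SE 0.67) in clone 1, 3.91 (SE 0.67) in clone 2, 2.82 (SE 0.67) in clone 3, and 3.24 (SE 0.61) for the mean of the clones. Clone 1 was measured in both assays, where its log2 change was 0.55 in TruSeq and 3.01 in PLATE-seq, and no fit over both assays was made.

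The siRNA control also had more DKK1 than the control of the clones. It had 83 and 28 counts (72.8 and 19.7 CPM), against the 10 and 7 counts of control, a log2 difference of 2.19 (SE 0.69) given as a description, and 36.6% of all genes were likewise free of overlap between these groups. Against the siRNA control libraries, the clone mean was higher by 1.05 on the log2 scale (SE 0.47). After siRNA SMARCAL1 DKK1 had 38 and 12 counts (25.9 and 11.9 CPM), against 72.8 and 19.7 CPM after siRNA control, and the groups overlapped. The log2 difference was -1.23 (SE 0.60, adjusted p = 0.790 by edgeR), and it was -0.02 without siRNA control replicate 1.

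DKK3 (chr11:11963106-12009769, minus strand), a Dickkopf relative that is not known as an LRP6 blocker of the DKK1 kind, was at 1.95, 2.03 and 2.12 CPM in TruSeq knockout clone 1, against 1.37, 1.37 and 1.32 CPM in control. The groups did not overlap, at low levels (log2 0.59, SE 0.27, with 0.50 within the side of many detected genes and 0.64 within the side of few). In PLATE-seq it had 1 count, in clone 1 replicate 1, and 0 in the other 11 libraries, where 3 counts would have been at most 3.72 CPM.

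LRP6 (chr12:12116025-12267012, minus strand), the co-receptor that DKK1 binds, was at 180, 173 and 166 CPM in TruSeq knockout clone 1, against 184, 182 and 174 CPM in control. The groups overlapped and the log2 change was -0.06 (SE 0.06), with -0.03 and -0.04 within the sides of many and of few detected genes. In PLATE-seq it had 34 and 29 counts in clone 1, 25 and 11 in clone 2 and 42 and 34 in clone 3, against 17 and 26 in control, with log2 changes of -0.50 (SE 0.58), -0.45 (SE 0.60) and -0.82 (SE 0.58) in that order of clones. After siRNA SMARCAL1 it had 17 and 19 counts, against 21 and 16 after siRNA control, a log2 difference of 0.03 (SE 0.60, adjusted p = 0.996 by edgeR).

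FZD6 (chr8:103298433-103332866, plus strand), a Frizzled receptor known from planar polarity, was at 64.6, 60.3 and 54.95 CPM in TruSeq knockout clone 1, against 55.6, 59.2 and 54.7 CPM in control (log2 0.08, SE 0.08). The groups overlapped, and the change was 0.16 within the side of many detected genes and 0.07 within the side of few. In PLATE-seq it had 0 to 10 counts in any library and was too low for the fit.

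AXIN2 (chr17:65528563-65561647, minus strand), a scaffold of the beta-catenin destruction complex and the classical feedback target of beta-catenin, was low in TruSeq, with 16 to 33 counts a library, and had 0 counts in PLATE-seq. It was at 3.06, 1.45 and 1.59 CPM in TruSeq knockout clone 1, against 1.54, 1.45 and 0.881 CPM in control, and the groups overlapped. This gave a log2 change of 0.65 (SE 0.41), with 1.02 within the side of many detected genes, 0.78 within the side of few, and 0.27 without knockout replicate 1. All 12 PLATE-seq libraries had 0 counts of AXIN2, which allows a level of up to 0.911 to 3.72 CPM by library. It shares 1316 exonic bases with AC004805.1 on the same strand, and reads there could not be assigned to either.

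TCF7L2 (chr10:112950250-113167678, plus strand), a TCF factor that brings beta-catenin to DNA, was at 11.4, 8.07 and 5.83 CPM in TruSeq knockout clone 1, against 8.79, 8.07 and 5.78 CPM in control. The groups overlapped (log2 0.16, SE 0.26, with 0.43 within the side of many detected genes and 0.27 within the side of few), and in each group the replicates with many detected genes were at or above the others. In PLATE-seq it was at 87.4 and 72.1 CPM in clone 1, 148 and 172 CPM in clone 2 and 143 and 94.7 CPM in clone 3, against 75.2 and 100 CPM in control. Clone 2 alone had both libraries above both control libraries. On the log2 scale the change was -0.14 (SE 0.32) in clone 1, 0.87 (SE 0.32) in clone 2 and 0.43 (SE 0.32) in clone 3. After siRNA SMARCAL1 it was at 89.1 and 69.2 CPM, against 96.4 and 79.3 CPM after siRNA control, a log2 difference of -0.14 (SE 0.32, adjusted p = 0.973 by edgeR).

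CTBP2 (chr10:124984317-125161170, minus strand), a corepressor that works with TCF factors and with many other repressors, differed between the assays. In TruSeq it was at 56.7, 54.6 and 59.8 CPM in knockout clone 1, against 62.8, 60.6 and 54.7 CPM in control, with overlapping groups and a log2 change of -0.06 (SE 0.08), at -0.13 within the side of many detected genes and 0.06 within the side of few. In PLATE-seq it had 25 and 24 counts in clone 1 (14.9 and 13.1 CPM), 1 and 5 in clone 2 (1.04 and 5.12 CPM) and 37 and 56 in clone 3 (16.4 and 17.004 CPM), against 44 and 43 in control (48.7 and 53.3 CPM). All 6 knockout libraries lay below both control libraries, clone 2 the lowest. The fitted log2 change was -1.86 (SE 0.53) in clone 1, -4.01 (SE 0.66) in clone 2, -1.60 (SE 0.51) in clone 3 and -2.49 (SE 0.42) for the mean of the clones.

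The siRNA control was lower in CTBP2 than the control of the clones as well, at 24.5 and 25.3 CPM, against the 48.7 and 53.3 CPM of control (log2 -1.03, SE 0.51). Against the siRNA control libraries the clone mean was -1.46 on the log2 scale (SE 0.43). After siRNA SMARCAL1 CTBP2 was at 9.53 and 16.8 CPM, against 24.5 and 25.3 CPM after siRNA control, without overlap, and the log2 difference of -0.94 (SE 0.55) had an adjusted p = 0.839 by edgeR. Of the exonic bases of CTBP2, 3416 overlap ZRANB1 on the other strand. ZRANB1 itself was at a mean of 58.9 CPM in knockout clone 1 and 53.5 CPM in control in TruSeq (log2 0.14), and at 12.3 CPM in the knockout clones and 12.8 CPM in control in PLATE-seq (log2 -0.08).

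**Figure D2:**
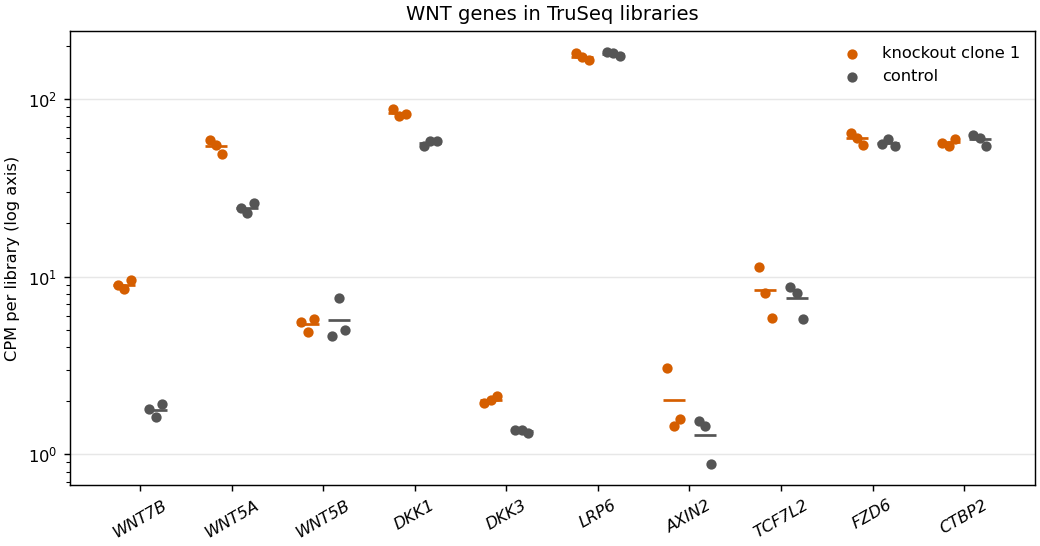
CPM (log axis) of the 10 WNT genes in the 6 TruSeq libraries, knockout clone 1 left of control, with points for libraries and lines for the mean of 3. WNT7B at 8.47 to 9.53 CPM, WNT5A at 49.1 to 58.8 CPM and DKK1 at 80.6 to 87.9 CPM lie above all their control libraries, as does DKK3 at a low level, and the other 6 genes overlap between the groups.

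Across the 10 genes, WNT7B, WNT5A and DKK1 were past an adjusted p of 0.05 in TruSeq, all higher in knockout clone 1, where 6.27% of the 17371 genes tested were past it, 3.96% higher and 2.31% lower. With DKK3, 4 of the 10 did not overlap between the groups, beside 26.3% of all genes tested. The median log2 change of the 10 was 0.36, beside -0.0044 over all genes tested. In PLATE-seq 6 of the 10 had enough counts to be fitted, and these were WNT7B, WNT5A, DKK1, LRP6, TCF7L2 and CTBP2. The count filter used all PLATE-seq libraries together, and WNT7B and WNT5A met it only through knockout libraries in which they were high. For the mean of the clones 2 of these 6 were past the threshold, DKK1 higher and CTBP2 lower, beside 0.198% of 8595 genes, 0.0465% higher and 0.151% lower. These 2 were also the members that did not overlap between knockout and control libraries, beside 12% of all genes. With each of the 8 libraries left out in turn, the log2 change was 2.92 to 3.44 for DKK1 and -2.98 to -2.24 for CTBP2. Since the genes were chosen from these comparisons, the counts say nothing further about them.

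The siRNA comparison was not used to choose the genes, and it is the test available to DKK1, LRP6, TCF7L2 and CTBP2. WNT7B and WNT5A met the count filter only through knockout libraries, so their values in it are a description. By edgeR 0 of the 6 members fitted passed, beside 0% of the 8595 genes. DESeq2 gave an adjusted p to 4 of them, leaving out WNT7B and WNT5A, and 0 of the 4 passed. An unadjusted p under 0.05 was held by 1 of the 6, WNT7B, beside 6.33% of all genes. By DESeq2 2 genes of all passed, neither of the WNT lists. SMARCAL1 itself, at 0 and 0 counts against 7 and 8, did not pass by edgeR either (log2 -6.14, SE 2.12, adjusted p = 0.573). It, too, met the count filter only through knockout libraries, so its p-value is a description. Not passing in this comparison does not show that a member was unchanged. WNT7B was higher and CTBP2 lower in both libraries of siRNA SMARCAL1 than in both of siRNA control, a separation that 37.4% of all genes also had.

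**Figure D3:**
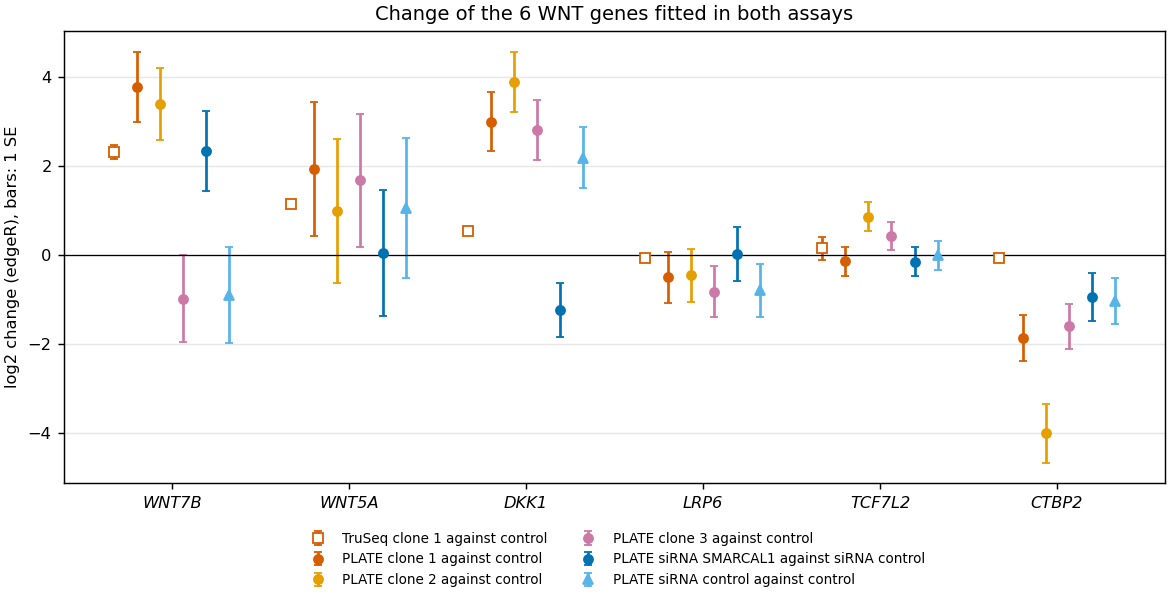
Log2 change from edgeR (vertical axis, bars for 1 SE) of the 6 WNT genes fitted in both assays, in TruSeq knockout clone 1, each PLATE-seq knockout clone, siRNA SMARCAL1 and siRNA control. DKK1 lies above 0 in every knockout comparison and in siRNA control against control, WNT7B is at 3.78 and 3.40 in clones 1 and 2 and at -0.98 in clone 3, and CTBP2 is at -0.06 in TruSeq against -1.60 to -4.01 in the PLATE-seq clones.

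Levels of different genes can be set side by side only per length, here as TruSeq CPM per kilobase of merged exons. In knockout clone 1 DKK1 was highest at 37.9, followed by LRP6 at 16.8, FZD6 at 14.7, WNT5A at 7.34, CTBP2 at 5.21, WNT7B at 1.78, WNT5B and TCF7L2 at 1.25 each, DKK3 at 0.402 and AXIN2 at 0.389. In control DKK1 led at 25.7, with LRP6 at 17.4, FZD6 at 13.9, CTBP2 at 5.42, WNT5A at 3.28, WNT5B at 1.33, TCF7L2 at 1.12, WNT7B at 0.352, DKK3 at 0.267 and AXIN2 at 0.247. WNT5B and TCF7L2 did not differ beyond their spread in either group, and nor did DKK3 and AXIN2. WNT5A stood above CTBP2 in clone 1 and below it in control, and WNT7B stood above WNT5B and TCF7L2 in clone 1 and below them in control. The ligand with the highest level per kilobase among 19 was WNT5A. The secreted modulator with the highest level was DKK1. The leaders of the other lists were the ligand carrier WLS at 24.8 in knockout clone 1 and 29.6 in control, the receptor RYK at 22.4 and 21.5, the kinase CSNK1A1 at 48.6 and 50.2, the corepressor CTBP1 at 24.8 and 20.1, the adhesion receptor CD44, first of the target genes by the mean of both groups, at 46.9 and 42.4, beside MYC at 39.0 and 49.5, and the GTPase RAC1 at 166 and 130, with knockout clone 1 before control in each pair.

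The genes whose log2 CPM ran most like that of WNT7B over the 6 TruSeq libraries, among 10292 genes with a mean of at least 10 CPM, were SLIT2 (Pearson r = 0.9997), TRIB2, LCN2, WDR11 and IGFBP5 (r = 0.9987). These values rest on the gap between 2 groups of 3 libraries. For DKK1 over the 12 PLATE-seq libraries, among 6157 genes, they were TMBIM6 (r = 0.858), MPHOSPH9 (0.845), JADE2 (0.844), MLLT4 (0.835) and ITM2C (0.834). Both are descriptions over libraries that share their group.

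The wider pathway was read from 8 lists with 135 genes other than the 10, of which 131 were in the TruSeq table and 94 were tested. The lists were chosen with earlier results of these data known, so their counts and shares below are a description and no test of the pathway. In knockout clone 1, 8 of the 94 rose and 1 fell (9.57%, beside the 6.27% of all genes). An unadjusted p under 0.05 was held by 31 of the 94, beside 20.4% of all genes. The split of called list genes was 15 higher and 3 lower with the replicate block. It was 22 and 9 with the side by detected genes as a term, and 2 and 0 without control replicate 2. The 6.27% belongs to the fit as reported, and shares of all genes under the other settings are not given here. The median log2 change of the 94 was 0.12. None of 6 further ligands, 3 genes of ligand processing, 4 further secreted modulators or 24 genes of cytoplasmic transduction passed. Those that passed were 1 of 17 receptors and co-receptors, 2 of 16 nuclear genes, 3 of 11 common target genes of beta-catenin and 3 of 18 genes of planar polarity and the other beta-catenin-independent branches. All adjusted p-values below are from edgeR over all genes tested.

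The receptor FZD1 was at 15.9, 16.8 and 18.1 CPM in knockout clone 1, against 9.47, 6.94 and 9.41 CPM in control (log2 0.97, SE 0.14, adjusted p = 0.00686). CAMK2D, a calcium-dependent kinase of the calcium branch, was at 152, 130 and 144 CPM in knockout clone 1, against 84.1, 82.5 and 76.0 CPM in control (log2 0.81, SE 0.08, adjusted p = 0.0012). FZD1 and CAMK2D were the only 2 of the 9 that passed whichever library was left out.

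The planar polarity gene PRICKLE1 had the largest of these changes, with means of 6.25 CPM in knockout clone 1 and 2.14 CPM in control (log2 1.55, SE 0.28). RAC1, a small GTPase that drives membrane movement and is the most abundant gene of its list per kilobase, averaged 518 CPM in knockout clone 1 and 405 CPM in control (log2 0.35, SE 0.07). Both lost the call without control replicate 2, knockout replicate 2 or knockout replicate 3, with adjusted p up to 0.0814 for PRICKLE1 and 0.124 for RAC1 by edgeR. PYGO1 and PYGO2, which link beta-catenin to chromatin, rose by 0.67 and 0.28 on the log2 scale (SE 0.11 and 0.07). PYGO1 lost its call without control replicate 2 (adjusted p = 0.0714 by edgeR), and PYGO2 lost it in each of the 6 omissions (adjusted p from 0.0644 to 0.222 by edgeR).

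Of the target genes, the cell cycle gene CCND1 averaged 178 CPM in knockout clone 1 and 124 CPM in control (log2 0.52, SE 0.08, adjusted p = 0.00727). BAMBI, a decoy receptor of the TGF-beta family, averaged 9.43 CPM in knockout clone 1 and 4.74 CPM in control (log2 0.97, SE 0.18, adjusted p = 0.0189). MYC fell, with 117 CPM in knockout clone 1 and 149 CPM in control (log2 -0.34, SE 0.07, adjusted p = 0.0190). CCND1 missed the threshold without control replicate 2 or knockout replicate 3, and BAMBI also without control replicate 1, with adjusted p up to 0.0809 for CCND1 and 0.0875 for BAMBI by edgeR. MYC passed without knockout replicate 1 but in no other omission, with adjusted p up to 0.113. A list whose 3 called members held 2 that rose and 1 that fell had no common direction, and its median log2 change was 0.04.

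**Figure D4:**
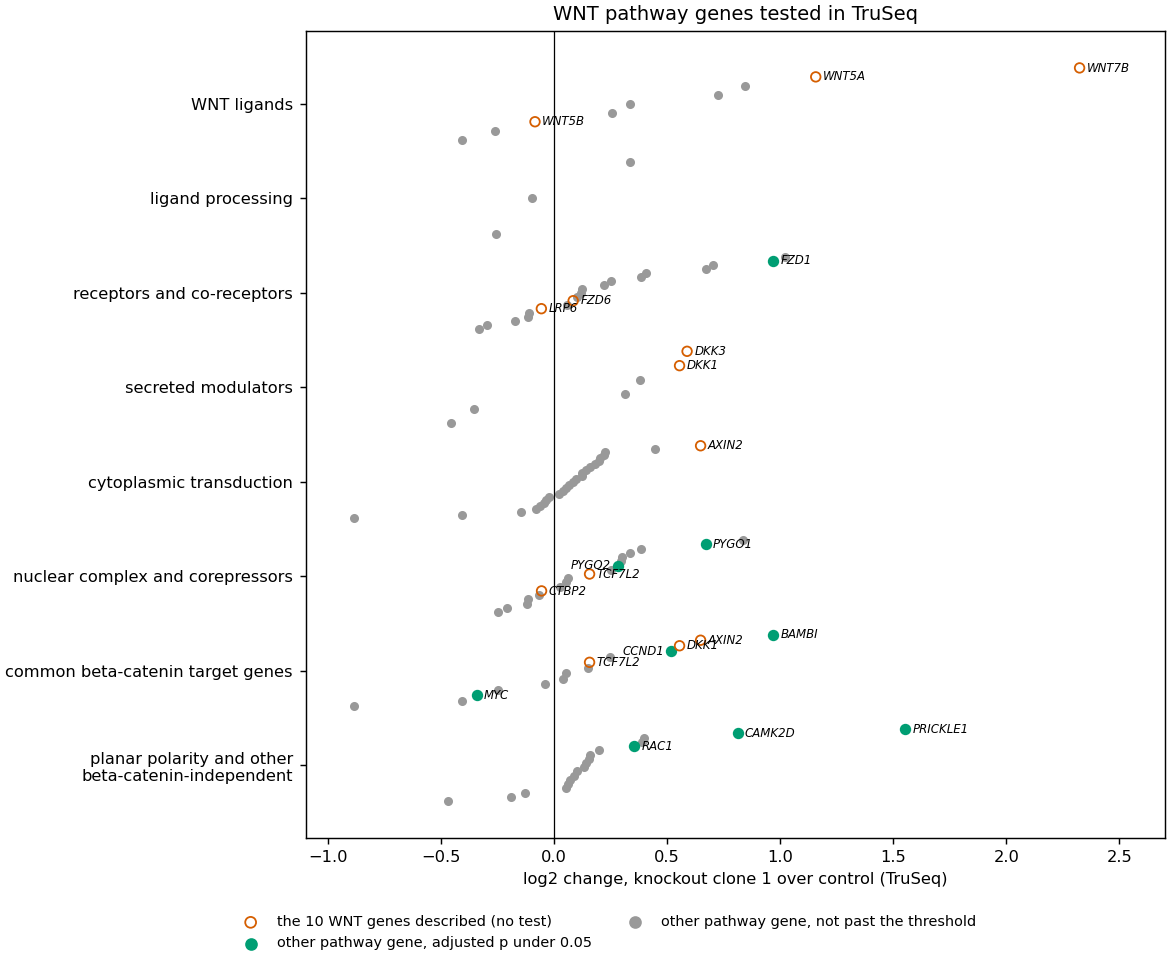
Log2 change in TruSeq (horizontal axis, knockout clone 1 over control) of every WNT pathway gene tested, in 1 row per list, with green points for genes past an adjusted p of 0.05, grey for the others and open circles for the 10 WNT genes, which may stand in more than 1 list. The 9 called genes lie between MYC at -0.34 and PRICKLE1 at 1.55, and WNT7B at 2.32 lies beyond them.

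In PLATE-seq 56 of the other pathway genes were tested. For the mean of the clones against control 0 passed by edgeR and 0 by DESeq2. An unadjusted p under 0.05 was held by 4 of the 56, beside 10.1% of all genes. MYC was among the 4, at 3.57 and 9.83 CPM in clone 1, 18.7 and 18.4 CPM in clone 2 and 19.1 and 45.2 CPM in clone 3, against 4.42 and 3.72 CPM in control (log2 1.94, SE 0.70, adjusted p = 0.314). That sign is the opposite of the TruSeq one, and clone 1, the line measured in both assays, overlapped with control in PLATE-seq. CCND1 was at 382 and 376 CPM in clone 1, 620 and 327 CPM in clone 2 and 247 and 155 CPM in clone 3, against 338 and 275 CPM in control. Of these 4 groups it was lowest in clone 3, as was WNT7B, and its difference among the clones had an adjusted p = 0.0906 by edgeR.

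Among the clones 0 of the 56 passed by edgeR (0.71% of all genes did), 8 had an unadjusted p under 0.05 (11.3% of all genes did), and DESeq2 called 2, CCND1 and RSPO3. RSPO3, a secreted amplifier of WNT signals, had an adjusted p = 0.0701 by edgeR. After siRNA SMARCAL1 0 of the 56 passed by edgeR and 0 by DESeq2. An unadjusted p under 0.05 was held by 3 of the 56, beside 6.33% of all genes. These were GSK3B, the kinase that marks beta-catenin for destruction (log2 -1.12, SE 0.34, adjusted p = 0.464), and the nuclear cofactors BCL9 (-1.44, SE 0.68, adjusted p = 0.780) and BCL9L (-1.42, SE 0.62, adjusted p = 0.697). In bulk libraries fewer cells with a transcript and less of it per cell cannot be told apart, for any gene here.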

How the data were processed

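The authors deposited raw counts of reads per gene. The submitters' processing notes name STAR, HTSeq and hg38. Versions, annotation and strand setting are not given in the sources used here. Spike-in entries of PLATE-seq (92) were left out. They were 0.0230% to 0.0534% of the libraries numbered replicate 1 and 0.000205% to 0.00136% of those numbered replicate 2, and the labels do not say what the number marks. The 2 assays had separate fits in edgeR 4.0.16 under R 4.3.3 (filterByExpr, TMM, quasi-likelihood F test, group as the only term), which tested 17371 genes in TruSeq with 4 residual degrees of freedom and 8595 in PLATE-seq with 6. Biological coefficients of variation were 0.123 (TruSeq) and 0.330 (PLATE-seq). Two-sided p-values were Benjamini-Hochberg adjusted across the genes of a fit, and the threshold was 0.05. The mean of the clones weighted the 3 clones equally. Standard errors are the log2 change over the square root of its F. CPM used TMM library sizes, and counting intervals and floors cover counting error only.

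The 10 genes and the pathway lists were chosen with earlier results of these data known. A planned test of the 10 among the clones is therefore not reported. For the same reason the numbers and shares of list genes called are a description. Named beyond the 10 were the genes past the threshold, the list genes of highest level per kilobase and the 5 genes most like WNT7B and DKK1, and others after their values were seen (ZRANB1 as an overlapping gene, and MYC, RSPO3, CCND1, GSK3B, BCL9 and BCL9L in PLATE-seq). Alternatives were RLE size factors, no filter on low counts, DESeq2 1.42.0, a replicate block, omission of each library, the side by detected genes as a term and within sides, the siRNA control as reference, and fits of the siRNA or clone libraries alone. Coordinates are 1-based GENCODE release 29, matched by symbol. Windows before gene starts came from RefSeq, GRCh38.p14. The scripts were tested on simulated data. Same-numbered libraries did not consistently deviate together in expression. Correlations of their deviations were 0.575, -0.273 and 0.376 in TruSeq and -0.058 to 0.056 in PLATE-seq. The spike-in share of PLATE-seq did split by the number, so these correlations do not show that the numbers carry no pairing.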

Additional observations from a re-analysis of the deposited data

Results flagged for a closer look

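WNT7B in PLATE-seq lay above both control libraries in both libraries of SMARCAL1 knockout clones 1 and 2, and below both in those of clone 3, which is labelled with the same genotype. Control libraries had 3 and 2 counts (3.32 and 2.48 CPM) and clone 3 libraries 3 and 5, at or near the floor of 3 counts. The log2 change of clone 3 against control was -0.98 with an SE of 0.98, too imprecise at these counts to show a difference or likeness. On the log2 scale clone 1 was above clone 3 by 4.76 and clone 2 above clone 3 by 4.38, and the difference was not tested. It was at 45.2 and 37.1 CPM in clone 1 and 38.5 and 24.6 CPM in clone 2, against 1.33 and 1.52 CPM in clone 3. Clone 3 libraries were also the deepest, with 2411594 and 3068887 counts, so that 3 counts were 1.33 and 0.911 CPM there. What sets clone 3 apart was not tested.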

How the results depend on the processing

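The count of called pathway genes in TruSeq, 9 in the fit as reported, was 9 with RLE size factors, 9 without the filter, 11 with DESeq2 and 10 within the side of many detected genes. It was 18 with the replicate block, 31 with the side as a term, 26 within the side of few detected genes, and 2 to 12 with each library left out, lowest without control replicate 2. The numbers share no stated batch, and the block changed no direction of the 10 genes. With it the PLATE-seq clone mean was 2.06 for WNT7B, 3.28 for DKK1 and -2.497 for CTBP2 on the log2 scale. Among the PLATE-seq clones the count of 0 was 2 without the filter, 2 with DESeq2, and 0 to 1 with each library left out, where a lone library was assumed to vary like the other groups. The counts of 0 for the clone mean and siRNA comparisons stayed at 0 under each alternative run. In the siRNA comparison the sign depended on single libraries for WNT5A (-1.43 to 0.84), LRP6 (-0.34 to 0.41) and TCF7L2 (-0.34 to 0.025). MYC and PYGO2 in TruSeq lost the call without the filter, and PYGO2 also within the side of many detected genes. CTBP2 and WNT5B in TruSeq differed in sign between the sides.

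With 2 libraries a group, 4 of the 10 genes were too low in PLATE-seq to be fitted. The causes of these shifts were not tested. The PLATE-seq clones share 1 control, so 1 pair of control libraries enters each of their changes.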
